A study of Mus musculus with 4 samples.

Results

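Dendritic cell-like cells made up 138 of the 16280 cells kept from the marrow of 4 chimeric mice. The kept cells were barcodes with 500 or more UMIs (unique molecular identifiers, 1 per captured RNA molecule) and 200 or more detected genes, of whose UMIs 10% or less were mitochondrial. The members were chosen by their own UMI counts of 8 genes. A member had no UMI of the B-lineage genes Cd79a and Cd79b or the T-cell gene Cd3e and under 10 UMIs per 10000 of the granulocyte gene Mpo. It was then called plasmacytoid if it held 2 or more UMIs of Siglech, or conventional if it held 10 or more UMIs of Cd74 with at least 1 UMI of Flt3 or Itgax. This gave 52 plasmacytoid and 86 conventional cells, against 16142 other kept cells. Since the levels of these 8 genes selected the cells, they are described here and support nothing, and no level of either kind was tested against the rest of the marrow. Only the genotype difference was compared with that of other cells.

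Each library was 1 mouse, 2 labelled Idh1-WT and 2 labelled Idh1-R132H, and values below are given in the order library 1 then library 2 of each group. The series' text describes 5 days of tamoxifen to recombine EYFP and a heterozygous Idh1-R132H allele, a change of isocitrate dehydrogenase 1 found in human leukaemias, and does not name the driver or cell type of the recombinase. EYFP+ lineage-negative marrow was sorted 2 weeks later and given to fully irradiated hosts with no supportive marrow, and the chimeric marrow was taken 16 weeks after transplantation in both groups. From each mouse 4000 cells of each of 3 populations went into 1 tube: total CD45.1+ cells, Lin-Sca1+cKit+ cells and Lin-cKit+ cells, all EYFP+ and DAPI-. Shares below are therefore shares of that enriched pool and not of marrow. The 3′ libraries (10x Genomics v2 chemistry) held 40364701 to 56353466 UMIs each. Between 13 and 345 kept barcodes were shared by a pair of libraries, most by Idh1-WT 1 and Idh1-R132H 1. No barcode was a member in more than 1 library, and 3 members' barcodes were kept cells elsewhere. Cells carrying Xist RNA and cells carrying Y-linked RNA were both present in every library, so no library was of 1 sex. With 2 mice a group, every p-value rests on these 4 libraries only. Those of edgeR, DESeq2 and limma also pool the spread over genes, so they are not each gene's own spread between mice.

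Plasmacytoid dendritic cells sense viral nucleic acid in endosomes and release type I interferon, under the transcription factors Tcf4 and Irf8. Conventional dendritic cells take up antigen and present it to T cells on MHC class II, whose chains are held by the invariant chain Cd74 until they are loaded. The conventional type 1 cells (Xcr1, Batf3) cross-present antigen to CD8 T cells, and type 2 cells (Cd209a, Klf4) mainly prime CD4 T cells. Both arise in marrow from progenitors that carry the receptor Flt3.

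Beside Siglech, which chose the plasmacytoid cells, all 15 other fixed plasmacytoid markers were detected in them. The summed level of the 16, Siglech included, was 13521 to 16216 CPM (UMIs per 1000000 UMIs of the summed cells) per library, against 319 to 568 CPM in conventional cells and 306 to 347 CPM in all other cells. Siglech, a surface lectin of these cells at chr7:55768178-55778925 (GRCm38, plus strand), was at 1108 and 1025 CPM in Idh1-WT and at 1293 and 1469.8 CPM in Idh1-R132H, against 1.48 to 2.34 CPM in other cells. Bst2, an antiviral membrane tether, was at 3807 and 3581 CPM and at 3851 and 3656 CPM. Every plasmacytoid cell held a Bst2 UMI, and so did every cell after thinning to 2000 UMIs. In erythroid cells, taken as a type that should lack it, 79.8% of 342 cells held one and 28.1% did after thinning. Median depths were 4092 UMIs per plasmacytoid and 19491 UMIs per erythroid cell.

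Transcription factors of the plasmacytoid programme were high in all 4 libraries. Irf8 was at 3364 and 2719 CPM in Idh1-WT and at 2375 and 2653 CPM in Idh1-R132H, against 118 to 128 CPM in other cells. Tcf4 was at 705 and 624 CPM and at 815 and 627 CPM, with thinned UMIs in 75.0% of plasmacytoid and 4.4% of erythroid cells. Spib was at 161, 178, 225 and 197 CPM and Runx2 at 262, 267, 225 and 287 CPM. In other cells they reached at most 3.499 and 16.9 CPM. Both Idh1-R132H values of Spib lay above both Idh1-WT values (edgeR adjusted p = 0.831), and those of Runx2 lay on either side. Irf7, which drives interferon transcription, was lower and uneven, at 222, 89.1, 155 and 89.6 CPM.

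The genes that set plasmacytoid cells furthest from the rest of the marrow, by the lowest ratio over the 4 libraries, were D13Ertd608e, Cd209d, Siglech, Klk1, Cd300c, Ccr9, Sh3bgr, Pacsin1, Cox6a2 and Scimp, followed by Cd7, Upb1, P2ry13, Pltp and Atp2a1. These ratios ran from 489 down to 121. Ccr9, a chemokine receptor that guides cells to gut and thymus, was at 262 and 223 CPM in Idh1-WT and at 239 and 125 CPM in Idh1-R132H. Cox6a2, a cytochrome oxidase subunit best known from muscle, was at 2679, 1589.8, 1701 and 2491 CPM. Ly6d was at 4593, 3625, 3331 and 4194 CPM, and Cd7 at 1430.3, 951, 1124 and 1362 CPM. None of these 4 genes separated the 2 groups. The cathepsins Ctsb (2357, 1917, 1982 and 2187 CPM) and Ctsl (645, 743, 998 and 896 CPM) were also carried. Unc93b1, the chaperone of endosomal Toll-like receptors, was at 765, 549.7, 618 and 735 CPM. Tlr7, a receptor for single-stranded RNA, was at 60.4, 74.3, 28.1 and 53.8 CPM, and no UMI of it was found in a conventional cell. No UMI of Tlr9 was found in either kind, which allows up to 12.3 CPM in plasmacytoid and 4.78 CPM in conventional cells (3 counts over the 4 libraries).

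Plasmacytoid cells also held MHC class II RNA, more unevenly than their own markers. Cd74 was at 3163 and 5081 CPM in Idh1-WT and at 5285 and 2115 CPM in Idh1-R132H. H2-Aa, an MHC class II alpha chain, was at 886 and 1203 CPM and at 1349 and 394 CPM, so the highest and lowest libraries were both Idh1-R132H. H2-Aa UMIs were seen in 40.4% of plasmacytoid cells after thinning, against 2.9% of erythroid and 55.8% of B-lineage reference cells. Of the type 1 markers, Xcr1, Batf3, Itgae, Tlr3, Gcsam and Snx22 were at 0 in plasmacytoid cells, and so was the shared marker Zbtb46. Of the 10 type 2 markers only Clec4a4 and Irf4 were at 0 there, and 8 were detected. The type 2 list summed to 663 to 995 CPM in plasmacytoid, 940 to 1531 CPM in conventional and 444 to 478 CPM in other cells. Clec10a UMIs were in 53.8% of plasmacytoid and 16.3% of conventional cells. The lymphoid and B-precursor markers Ebf1, Vpreb1, Vpreb3, Igll1, Pax5, Ms4a1 and Rag1 were at 0 as well. The neutrophil markers, which other cells held at 35319 to 43775 CPM in sum, came to 2460 to 3298 CPM in plasmacytoid and 2287 to 2657 CPM in conventional cells. The estimated free RNA was 5.10% to 8.40% of the UMIs of either kind.

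**Figure D1:**
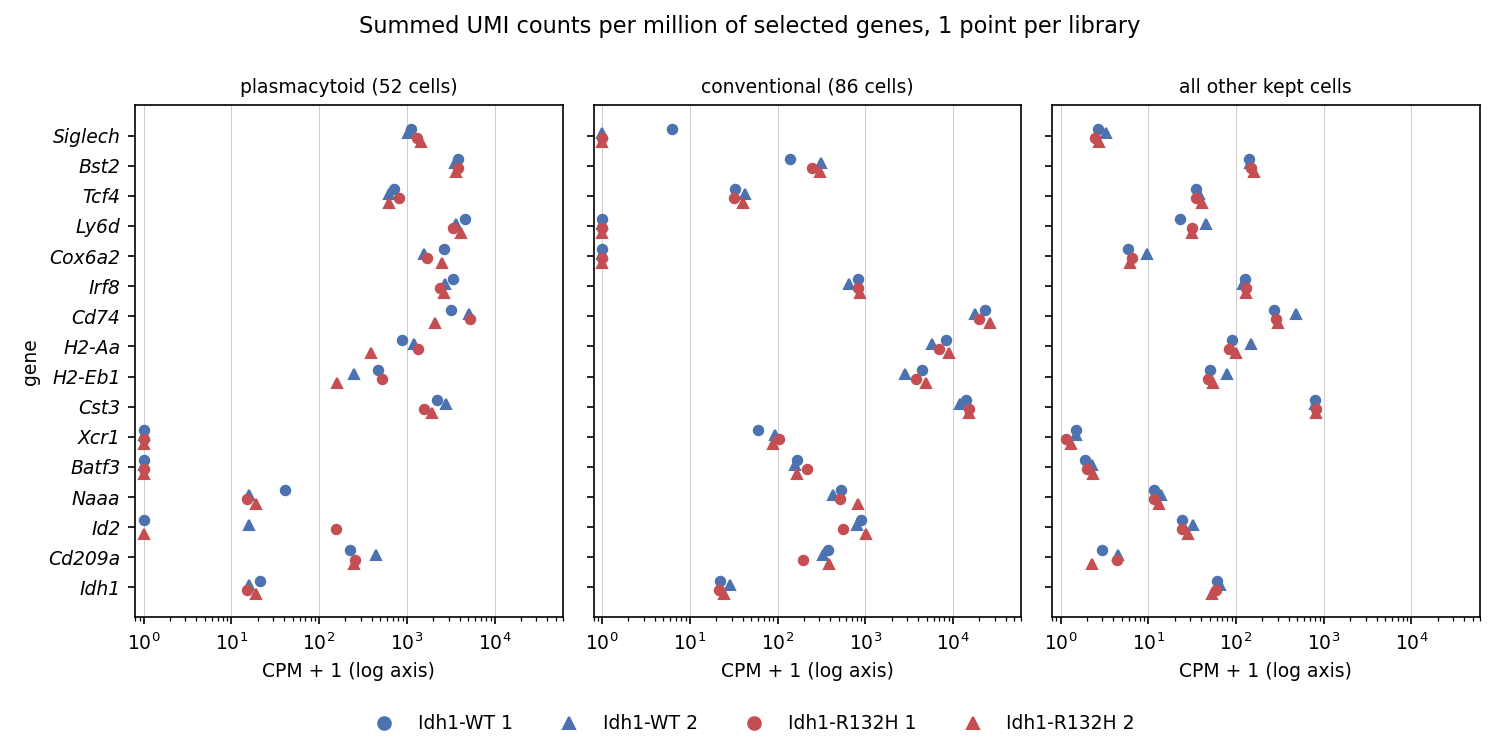
Level of 16 genes in plasmacytoid, conventional and all other kept cells, as CPM + 1 on a log axis, with 1 point per library coloured by genotype. Siglech, Bst2 and Ly6d are highest in the plasmacytoid panel and Cd74, H2-Aa and Cst3 highest in the conventional panel. In the plasmacytoid panel the 4 libraries lie apart for Cd74 and H2-Aa.

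The rule for plasmacytoid cells fell between sparse and clear cells. The 18 cells with 1 Siglech UMI, just outside, held a median of 3 of the other 15 plasmacytoid markers. The 7 cells with 2 UMIs, just inside, held a median of 8, and the 45 cells with 3 or more held a median of 11. The exclusions also took out cells of the same make-up: 41 further cells had 2 or more Siglech UMIs and a median of 11 plasmacytoid markers, 10 and 11 in Idh1-WT against 9 and 11 in Idh1-R132H. Of these, 29 were left out for a Cd79b UMI alone, 6 for Mpo alone, 4 for both and 2 for Cd79a. The comparison of genotypes in plasmacytoid cells is also given with these cells added back.

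The conventional cells carried the antigen-presentation genes. The 8 shared conventional markers summed to 33428 to 50332 CPM per library, against 555 to 898 CPM in other cells. This sum includes Cd74, Flt3 and Itgax, which chose the cells, so the rule fixed much of it. Ly6d, Cox6a2 and Pacsin1 were at 0. Cd74 was at 23300.2 and 17598 CPM in Idh1-WT and at 19580.2 and 26066 CPM in Idh1-R132H. H2-Aa was at 8304 and 5745 CPM and at 6881 and 9096 CPM, H2-Ab1 (beta chain) at 8835, 7038, 7759 and 9999.8 CPM, and H2-Eb1 at 4375, 2809.7, 3747 and 4925 CPM. In each of these genes the 2 groups overlapped. The loading factors were lower and likewise overlapped: H2-DMa was at 1042, 702, 745 and 880.2 CPM and H2-DMb1 at 718, 568, 582 and 769 CPM. H2-DMb1 and H2-DMb2 are close copies whose reads the counting could split. Ciita, the coactivator of these genes, was at 26.6, 9.30, 30.6 and 31.7 CPM. Cst3, a cathepsin inhibitor, was at 13992, 11946, 15415 and 15281 CPM.

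The class II genes share a promoter code read by Ciita's partners, with a Y box bound by NF-Y. The promoters of 3 such genes found in the conventional cells are printed as chosen examples. They are the 150 bases before the RefSeq start on GRCm38.p6, 5′ to 3′ on the gene's strand, with ATTGG or CCAAT and AACNGATG in capitals. H2-Aa lies at chr17:34287824-34287973 (minus strand), H2-Eb1 at chr17:34305717-34305866 (plus) and H2-DMb1 at chr17:34153041-34153190 (plus).
H2-Aa: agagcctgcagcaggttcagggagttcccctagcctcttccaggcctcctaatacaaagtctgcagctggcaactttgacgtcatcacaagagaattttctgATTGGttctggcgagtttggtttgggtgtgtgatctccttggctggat
H2-Eb1: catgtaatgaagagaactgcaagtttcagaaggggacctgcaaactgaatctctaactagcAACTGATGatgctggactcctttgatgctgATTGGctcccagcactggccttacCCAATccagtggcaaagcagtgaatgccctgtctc
H2-DMb1: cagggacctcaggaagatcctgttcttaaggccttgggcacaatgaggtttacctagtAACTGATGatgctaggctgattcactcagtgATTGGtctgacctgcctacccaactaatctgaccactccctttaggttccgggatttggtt

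In these 3 windows ATTGG began at position -48 in H2-Aa, -59 in H2-Eb1 and -61 in H2-DMb1, where -1 is the last base before the start. AACNGATG began at -89 in H2-Eb1 and at -92 in H2-DMb1, and these letters are not in the H2-Aa window. The window of H2-DMb2 was also read and is not printed: its ATTGG began at -90 and its AACNGATG at -121. Both motifs were searched on both strands (the second as CATCNGTT), and they share no base in the windows printed. Of 32851 RefSeq promoters of this length, 24.5% held the first motif, 1.14% the second and 0.253% both. Of the 11 class II presentation genes, 8 were in the promoter table, and the motifs were not counted over these 8. A match is a description of letters and not of a bound site.

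Leading genes of the conventional cells were Batf3, Ifi205, Xcr1, Ckb, Cd209a, Tnni2, H2-Ab1, H2-Aa, Slamf7, Cd74, H2-Eb1, Naaa, Aif1, Id2 and Plbd1, with lowest ratios from 123 down to 22.98. They mix type 1 genes (Batf3, Xcr1, Naaa, Id2) with the type 2 gene Cd209a. Batf3, the factor that type 1 cells need, was at 165 and 158 CPM in Idh1-WT and at 214 and 167 CPM in Idh1-R132H. Xcr1, their chemokine receptor, was at 58.5 and 93.0 CPM and at 102 and 87.2 CPM. Naaa was at 526, 423, 510.4 and 833 CPM and Id2 at 904, 814, 551 and 1015 CPM. Cd209a was at 377, 330.3, 194 and 381 CPM. It was not particular to the conventional kind: 26.7% of conventional and 30.8% of plasmacytoid cells held a Cd209a UMI. Batf3 UMIs were found in 43 of 86 conventional cells and in 0.6% of erythroid cells, and Xcr1 UMIs in 22.1% and in 0 of 342, which allows up to 0.877% of cells with a UMI (3 counts). The median conventional cell held 6017 UMIs. Zbtb46 UMIs were found in 11.6% of conventional and 9.9% of the deeper erythroid cells, and in 1.2% and 0.3% after thinning. They were found in 0 of 52 plasmacytoid and 1 of 589 B-lineage reference cells. Of 7 markers of mature dendritic cells, 6 were detected in conventional cells, at a summed 5.32, 41.9, 235 and 15.9 CPM, so 1 Idh1-R132H library held most of them. Cd86, a co-stimulatory ligand, was at 42.5, 14.0, 61.3 and 55.5 CPM.

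The conventional rule admitted unlike cells, seen by a division chosen after the data were examined. Of the 86 cells, 18 held 3 or more of 10 stem and progenitor markers (among them Kit, Cd34, Ly6a, Meis1, Hlf, Sox4, Cd27, Myb and Adgrl4). All 18 had under 30 Cd74 UMIs, at most 24, while the median conventional cell had 118.5 and the highest 533. Of the other 68, 31 held more type 1 than type 2 markers, 31 the reverse and 6 equal numbers, and 9 cells were within 1 marker of a tie. The progenitor-marked cells had Cd74 at 1676 CPM, against 31450 CPM in type 1-leading and 25586 CPM in type 2-leading cells. They held Cd34 at 323 CPM and Sox4 at 383 CPM, against at most 22.5 CPM in the other conventional classes, and Stmn1, a microtubule regulator of dividing cells, at 3610 CPM. Type 1-leading cells held Cst3 at 25754 CPM, Irf8 at 1390 CPM and Naaa at 1168 CPM. Type 2-leading cells held Lyz2, a myeloid lysozyme, at 18400 CPM, Cd209a at 1426 CPM, Ccr2 at 951 CPM and Cd7 at 448 CPM. Their S100a4 was at 971 CPM, Ly6c2 at 668 CPM, Cst3 at 4829 CPM and Irf8 at 172 CPM. They held a median of 7 of 10 monocyte markers and 4 of 10 type 2 markers, against 5 and 1 in type 1-leading cells. This class is therefore not shown to be type 2 dendritic cells rather than monocyte-like cells. Since markers made these classes, their levels are a description of them.

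The progenitor-marked cells were not spread evenly over the libraries. They numbered 5 and 9 in Idh1-WT against 1 and 3 in Idh1-R132H. They gave 29.2% and 41.5% of conventional UMIs in Idh1-WT against 7.99% and 11.96% in Idh1-R132H. Type 1-leading cells numbered 7 and 10 against 6 and 8, and gave 37.1% and 40.1% against 47.2% and 54.2% of the UMIs. Type 2-leading cells numbered 7 and 7 against 8 and 9, and gave 19.5% and 15.8% against 32.4% and 33.9%. The groups did not overlap in any of these UMI shares. Just outside the rule, 20 cells had 8 or 9 Cd74 UMIs, with a median of 6.5 progenitor markers, and 8 cells just inside had 10 or 11, with a median of 6. A further 78 cells had 30 or more Cd74 UMIs and no UMI of Flt3 or Itgax (17 and 22 in Idh1-WT against 20 and 19 in Idh1-R132H).

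**Figure D2:**
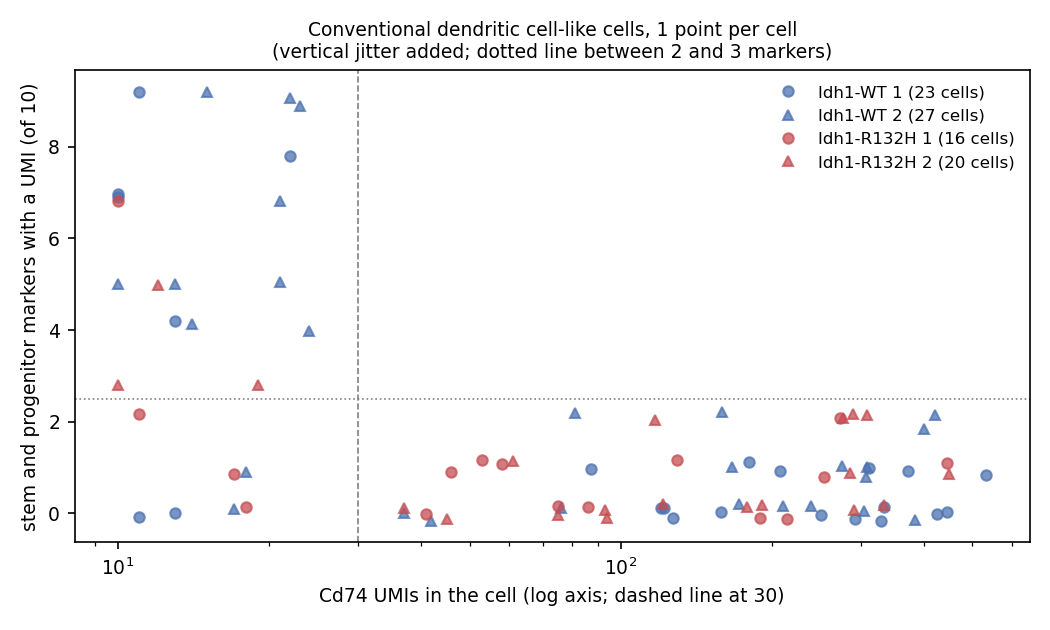
Each conventional cell by its Cd74 UMIs (x axis, log scale) and the number of 10 stem and progenitor markers it held (y axis), coloured by genotype. The dashed line at 30 Cd74 UMIs has all 18 cells with 3 or more markers (above the dotted line) to its left, 14 of them Idh1-WT.

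Shares of the 2 kinds did not separate the genotypes beyond what 4 mice allow. Plasmacytoid cells were 0.266% and 0.371% of kept cells in Idh1-WT, against 0.364% and 0.293% in Idh1-R132H, with exact 95% intervals that reached from 0.138% to 0.633%. The means were 0.319% ± 0.0738 and 0.329% ± 0.0502 (SD, n = 2 each), an exact permutation p of 1. Conventional cells were 0.511% and 0.770% against 0.416% and 0.451%, means of 0.641% ± 0.184 and 0.434% ± 0.0248. The groups did not overlap, by a log2 ratio of -0.56 and with a two-sided exact permutation p of 0.333, the smallest that 2 against 2 can give. Among members, the plasmacytoid share was 34.3% and 32.5% against 46.7% and 39.4%, also without overlap (log2 ratio 0.37, exact permutation p = 0.333). Counting only conventional cells with 30 or more Cd74 UMIs, which leaves 16, 16, 12 and 17 cells, brought the conventional ratio to -0.22 and the plasmacytoid share's to 0.15. Leaving out Idh1-WT 2 brought the conventional ratio to -0.24. Applying the rule after every cell was thinned to 3000 UMIs turned the log2 ratio for the share of conventional dendritic cell-like cells to 0.28, and that for the share of plasmacytoid among all dendritic cell-like cells to -0.07.

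**Figure D3:**
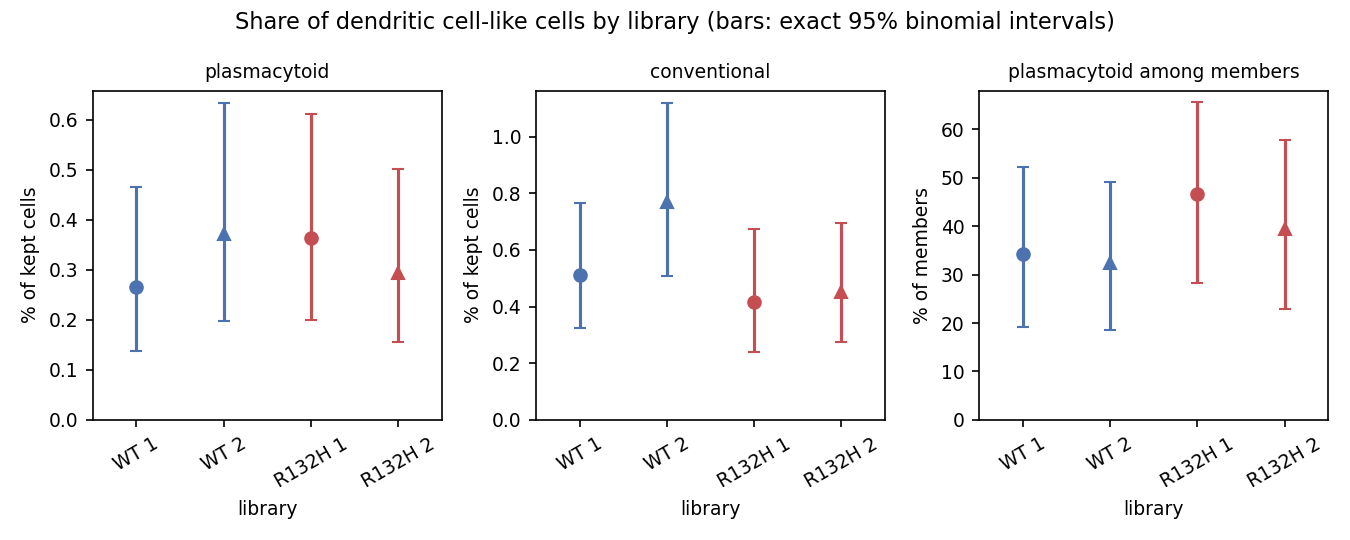
Plasmacytoid and conventional cells as a percent of kept cells, and plasmacytoid cells as a percent of all members, 1 point per library with its exact 95% binomial interval. Intervals cover counting error only, and every interval overlaps those of the other libraries in its panel.

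In plasmacytoid cells, Idh1-R132H was compared with Idh1-WT on the summed counts of 12, 13, 14 and 13 cells (49641 to 71147 UMIs). Of 958 genes tested with edgeR's quasi-likelihood test, 12 passed a Benjamini-Hochberg FDR of 0.05 (1.25%), 8 higher (0.835%) and 4 lower (0.418%) in Idh1-R132H. Without adjustment 122 genes had p under 0.05. The kind held under the planned 20 cells a library, so this fit, at 10 cells, was added after the cells were counted. DESeq2 called 0 genes (21 with unadjusted p under 0.05), with Crip1 at an adjusted p of 0.0837. Leaving out Idh1-WT 1 gave 35 edgeR calls and Idh1-R132H 1 gave 36, against 14 without Idh1-WT 2 and 9 without Idh1-R132H 2. Crip1 and Tmsb10 were called in all 4 of these fits.

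The 4 genes that fell were Crip1, Tmsb10, Lgals1 and Lgals3. Crip1, a small LIM-domain protein, was at 2861 and 4101 CPM in Idh1-WT and at 1476 and 1506 CPM in Idh1-R132H. It fell by 1.20 on the log2 scale (SE 0.17, edgeR adjusted p = 0.000957), with both Idh1-R132H values under both Idh1-WT values. Tmsb10, an actin-binding thymosin, was at 5539.8 and 6166 CPM and at 2979.8 and 3352 CPM (log2 -0.86 ± 0.12 SE, edgeR adjusted p = 0.000789). Lgals1, galectin 1, was at 6950 and 7132 CPM and at 4484 and 4373 CPM (log2 -0.64 ± 0.10, edgeR adjusted p = 0.00193). Lgals3, galectin 3, was at 483 and 728 CPM and at 141 and 179 CPM (log2 -1.92 ± 0.36, edgeR adjusted p = 0.00818). The Lgals3 difference rested on few cells: its 73 UMIs in Idh1-WT came from 8 cells.

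Lgals3 marked a small set of plasmacytoid cells, divided here after the values were seen. There were 10 cells with 3 or more Lgals3 UMIs, 4 and 4 in Idh1-WT against 1 and 1 in Idh1-R132H, and they gave 32.5% and 45.8% against 6.85% and 9.19% of plasmacytoid UMIs. They held a median of 6.5 plasmacytoid markers, against 11 in the other 42. Their Cd74 was at 580 CPM against 5135 CPM, Ly6d at 931 CPM against 4761 CPM and Ccr9 at 35.1 CPM against 267 CPM. Crip1 was at 6304 CPM against 1327 CPM, Ly6c2 at 2652 CPM against 995 CPM, and Irf8 at 2740 CPM against 2734 CPM. In the 42 others, Crip1 was at 1342 and 1480.2 CPM in Idh1-WT and at 1449 and 1046 CPM in Idh1-R132H, and edgeR gave a log2 difference of -0.16 (adjusted p = 0.985). Without the 10 cells edgeR called 2 of 704 genes, Apoe and Mzb1, and Tmsb10 was at 4863, 3070.0, 2927 and 2487 CPM. Lgals1 lost its call with a difference about as large (-0.58, adjusted p = 0.147), at 7130 and 4852 CPM against 4195 and 3731 CPM, where the groups did not overlap. Rps12 was 0.94 (adjusted p = 0.0659). Ly6d was -0.61 (adjusted p = 0.0659), at 6235 and 6058 CPM in Idh1-WT and at 3546 and 4441 CPM in Idh1-R132H, also without overlap.

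The 8 rises held 6 ribosomal protein genes, Srgn and Apoe. Rps12 was at 846 and 891 CPM in Idh1-WT and at 1391 and 1882 CPM in Idh1-R132H (log2 0.93 ± 0.22 SE, edgeR adjusted p = 0.042). Rpl37, Rps18, Rplp0, Rpl35a and Rps28 rose by 0.46 to 0.61. Of 79 ribosomal protein genes tested, 78 were higher and 6 rose, with a median log2 difference of 0.32. Over all 958 genes 46.8% were higher, 0.835% rose and the median was -0.03. With library totals in place of TMM factors, 6 genes stayed called in all, and of the ribosomal genes only Rpl37 was among them. Srgn, a proteoglycan of secretory granules, was at 342 and 223 CPM and at 703 and 609 CPM (log2 1.28 ± 0.30, edgeR adjusted p = 0.042). Apoe was at 40.3 and 59.4 CPM and at 562 and 233 CPM (log2 2.98 ± 0.56, edgeR adjusted p = 0.00818), and 37 of its 53 Idh1-R132H UMIs (69.8%) were in 1 cell.

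The plasmacytoid identity genes did not pass the test. Irf8 had a log2 difference of -0.24 ± 0.14 (SE, edgeR adjusted p = 0.535), Tcf4 of 0.17 ± 0.25, Bst2 of 0.06 ± 0.12 and Ly6d of -0.09 ± 0.14. Without the Lgals3-rich cells Ly6d was -0.61, as given above. Of 15 plasmacytoid markers tested, 10 were higher and 5 lower, 0 passed, and their median was 0.06. These 15 include Siglech (0.41), whose UMIs chose the cells. Of 5 interferon-response genes tested, 3 were higher and 0 passed, with Ifi27l2a at 866 and 951 CPM in Idh1-WT and at 661 and 717 CPM in Idh1-R132H (log2 -0.38 ± 0.24). All 6 tested genes of S, G2 and M phase were lower, with a median of -1.01, and 0 passed. Fdps, an enzyme of isoprenoid synthesis, was at 282 and 535 CPM against 98.4 and 161 CPM (log2 -1.69 ± 0.44, edgeR adjusted p = 0.0734). Mzb1, an endoplasmic reticulum chaperone, was at 262 and 267 CPM against 56.2 and 89.6 CPM (log2 -1.84 ± 0.56, edgeR adjusted p = 0.139).

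Which Siglech-carrying cells were counted changed the list of genes. With the 29 cells that had only a Cd79b UMI against them added back, 20 of 1572 genes passed in edgeR, 5 higher and 15 lower, and 6 of the 12 stayed called. Crip1 was then -1.20 (edgeR adjusted p = 1.79e-06) and Lgals3 -2.15. Crip1 in those 29 cells alone was at 1039.6 and 3253 CPM in Idh1-WT and at 584 and 1466 CPM in Idh1-R132H, where the groups overlapped. With every cell that held 2 Siglech UMIs, Mpo-carrying cells included, 148 of 2127 genes passed. Of the 4 added cells with both Cd79b and Mpo, 0 were Idh1-WT and 4 were Idh1-R132H.

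In conventional cells, 23, 27, 16 and 20 cells gave 97956 to 214973 UMIs a library, and 27 of 2039 genes passed in edgeR (1.32%), 16 higher (0.785%) and 11 lower (0.539%) in Idh1-R132H. Without adjustment 217 genes had p under 0.05. Idh1-R132H 1 held under 20 cells, so this fit too was added. DESeq2 called 0 genes (61 with unadjusted p under 0.05), with Stmn1 and Xist at an adjusted p of 0.0698.

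Of the 11 falls, 2 were fixed genes of S, G2 and M phase. Stmn1 was at 1914 and 1907 CPM in Idh1-WT and at 990.2 and 833 CPM in Idh1-R132H, and fell by 1.03 on the log2 scale (SE 0.14, edgeR adjusted p = 8.78e-05). Hist1h2ap, a replication-dependent histone, was at 4641 and 3368 CPM and at 2236 and 2458 CPM (log2 -0.72 ± 0.15, edgeR adjusted p = 0.0331). The tubulins Tubb4b, Tuba1b and Tubb5, the chromatin protein Hmgn2 and the kinetochore protein Spc25 also fell, by 0.57 to 2.33. Of 17 tested genes of S, G2 and M phase, 15 were lower, 2 fell (Stmn1 and Tubb5) and the median was -0.57, against -0.01 over all 2039 genes. The other falls were Serpinb1a, Lsm3, 2700094K13Rik and Xist. Xist, the RNA that coats the inactive X chromosome, was at 803 and 958 CPM and at 194 and 404 CPM (log2 -1.46 ± 0.24, edgeR adjusted p = 0.00653). Cells with Xist and no Y-linked UMI were 18 of 23 and 16 of 27 conventional cells in Idh1-WT, against 3 of 16 and 10 of 20 in Idh1-R132H. They were 61.8%, 44.96%, 46.8% and 35.3% of other kept cells.

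Of the 16 rises, 2 were fixed monocyte markers. Wfdc17, a secreted inhibitor-like protein of myeloid cells, was at 202 and 167 CPM in Idh1-WT and at 347 and 745 CPM in Idh1-R132H (log2 1.65 ± 0.32, edgeR adjusted p = 0.0189). Fcer1g and Tyrobp, signalling adaptors of myeloid receptors, were at 909 and 735 CPM against 1256 and 1531 CPM and at 1010.0 and 935 CPM against 1511 and 1475 CPM. They rose by 0.82 ± 0.16 (edgeR adjusted p = 0.00778) and 0.67 ± 0.14 (adjusted p = 0.0116). Fn1 and F13a1, made by monocytes, rose by 2.49 ± 0.64 and 1.93 ± 0.45, from 31.9 and 9.30 CPM to 112 and 111 CPM and from 37.2 and 32.6 CPM to 143 and 119 CPM. All 8 tested monocyte markers were higher, 2 of them passed (Fn1 and F13a1), and the median was 0.93. Over all 2039 genes 48.9% were higher, 0.785% rose and the median was -0.01. The 2 calls rested on few cells: Fn1 had 25 Idh1-R132H UMIs in 7 cells, 9 of them in 1, and F13a1 29 in 10 cells, 11 of them in 1. The summed monocyte markers were at 6852 and 3628 CPM in Idh1-WT and at 9382 and 11919 CPM in Idh1-R132H. Like the type 2-leading share of UMIs, they were higher in both Idh1-R132H libraries, and the part of either in these rises was not tested. Ccl9, Lst1, Ifitm6, Ifitm3, Prdx5, Plac8, Lsp1, Psap, Ftl1 and Tmsb4x rose by 0.45 to 1.45. Ccl5 rose by 3.82 ± 0.84, but its 25 Idh1-R132H UMIs were in 4 cells and 12 of them (48.0%) in 1.

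The calls in conventional cells followed which cells were counted. Among the 61 cells with 30 or more Cd74 UMIs, edgeR called 1 of 1473 genes, Wfdc17 (log2 1.40, adjusted p = 0.0126), at 248 and 157 CPM in Idh1-WT and at 399 and 658 CPM in Idh1-R132H. Stmn1 there was at 778 and 496 CPM and at 1059 and 883 CPM, a log2 difference of 0.60 (adjusted p = 0.534), opposite in sign to that over all 86 cells. Hist1h2ap was at 2558 and 688 CPM and at 2728 and 2774 CPM (0.74). Tyrobp was at 1358 and 1358 CPM and at 1408 and 1675 CPM. Of the 27 genes called over all 86 cells, 24 could be tested in the 61, and 20 of these kept their direction. Some lost the call with a difference about as large, among them Prdx5 (1.05), Fn1 (2.81), Ccl5 (3.67) and Ifitm3 (0.70). The cells with under 30 Cd74 UMIs gave 35.8% and 46.6% of conventional UMIs in Idh1-WT, against 18.0% and 11.96% in Idh1-R132H. Within the 31 type 2-leading cells, Wfdc17 was at 901 and 558 CPM and at 1071 and 1498 CPM, so the groups did not overlap there either. Without Idh1-WT 2 there were 3 calls, 2 of them among the 27, and without Idh1-R132H 2 there were 11, 7 of them among the 27. Without Idh1-R132H 1 there were 16 calls (9 of the 27) and without Idh1-WT 1 there were 52 (21 of the 27).

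Antigen-presentation genes did not pass the test in conventional cells. Of 8 class II presentation genes tested, 6 were higher in Idh1-R132H, 0 passed and the median was 0.21. H2-Aa had a log2 difference of 0.23 ± 0.28 (SE, edgeR adjusted p = 0.857), H2-Ab1 of 0.21 ± 0.15 and H2-Eb1 of 0.32 ± 0.33. Of 13 class I genes tested, 8 were higher and 0 passed. Type 1 markers were higher in 4 of 4 tested and type 2 markers in 3 of 5, with 0 calls, and Xcr1 had 0.34 ± 0.42, Cd209a -0.21 ± 0.28 and Irf8 0.24 ± 0.17. Ifi27l2a, an interferon-induced gene, was at 633 and 298 CPM in Idh1-WT and at 725 and 2284 CPM in Idh1-R132H (log2 1.79 ± 0.92, edgeR adjusted p = 0.673), so its high mean came from 1 library. Of 12 interferon-response genes, 9 were higher and 1 rose, Ifitm3, against 48.9% higher and 0.785% that rose over all genes tested.

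Over both kinds together, 25 of 2730 genes passed in edgeR (0.916%), 10 higher (0.366%) and 15 lower (0.549%), and 257 had an unadjusted p under 0.05. The mix of kinds moved with genotype here: plasmacytoid cells gave 20.9% and 23.8% of member UMIs in Idh1-WT, against 42.1% and 30.7% in Idh1-R132H. All 16 plasmacytoid markers were higher in Idh1-R132H, 3 rose (Siglech, a gene of the rule, Bst2 and Ly6d) and their median was 0.68, against -0.00027 over all genes. Bst2 was at 904 and 1091 CPM and at 1762 and 1330.5 CPM, whereas neither kind alone showed a call for it. All 13 genes of the lysosomal list, which holds proteases and other genes such as Psap and Cst3, were higher and 3 rose (Ctsl, Ctsh and Psap). Over all 2730 genes 49.96% were higher and 0.366% rose. Among falls, Hist1h2ap was at 4189 and 3252 CPM and at 1892 and 1721 CPM (log2 -1.01 ± 0.12, edgeR adjusted p = 0.000809), and Stmn1 at 1750 and 1867 CPM and at 1118 and 764 CPM (-0.91 ± 0.14, adjusted p = 0.00145). Of 18 genes of S, G2 and M phase, 16 were lower, 2 fell and the median was -0.71. Tyrobp was at 2019 and 1856 CPM and at 3341 and 2831 CPM (0.71 ± 0.10, adjusted p = 0.000809).

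These sums changed with the weighting and with the cells. With the kinds at equal weight in each library, limma called 3 genes, all lower, and Bst2 was 0.04 and Ly6d -0.13 on the log2 scale. With only conventional cells of 30 or more Cd74 UMIs, edgeR called 0 of 2302 genes (164 with unadjusted p under 0.05), with Hist1h2ap at 0.003 and Stmn1 at 0.12. Of the 25 called genes 23 could be tested there and 21 kept their direction. Without a call, Smc2 was -1.46 there against -1.86 over all members, Xist -0.82 against -1.11, H2afx -0.72 against -0.85 and Ube2s -0.66 against -0.77. DESeq2 called 1 gene, Hist1h2ap. In cells that carried Xist and no Y-linked UMI, edgeR called 0 of 1724 genes (96 with unadjusted p under 0.05). Leaving out Idh1-WT 1 or Idh1-R132H 2 gave 46 or 47 calls, against 15 without Idh1-WT 2 and 6 without Idh1-R132H 1.

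**Figure D4:**
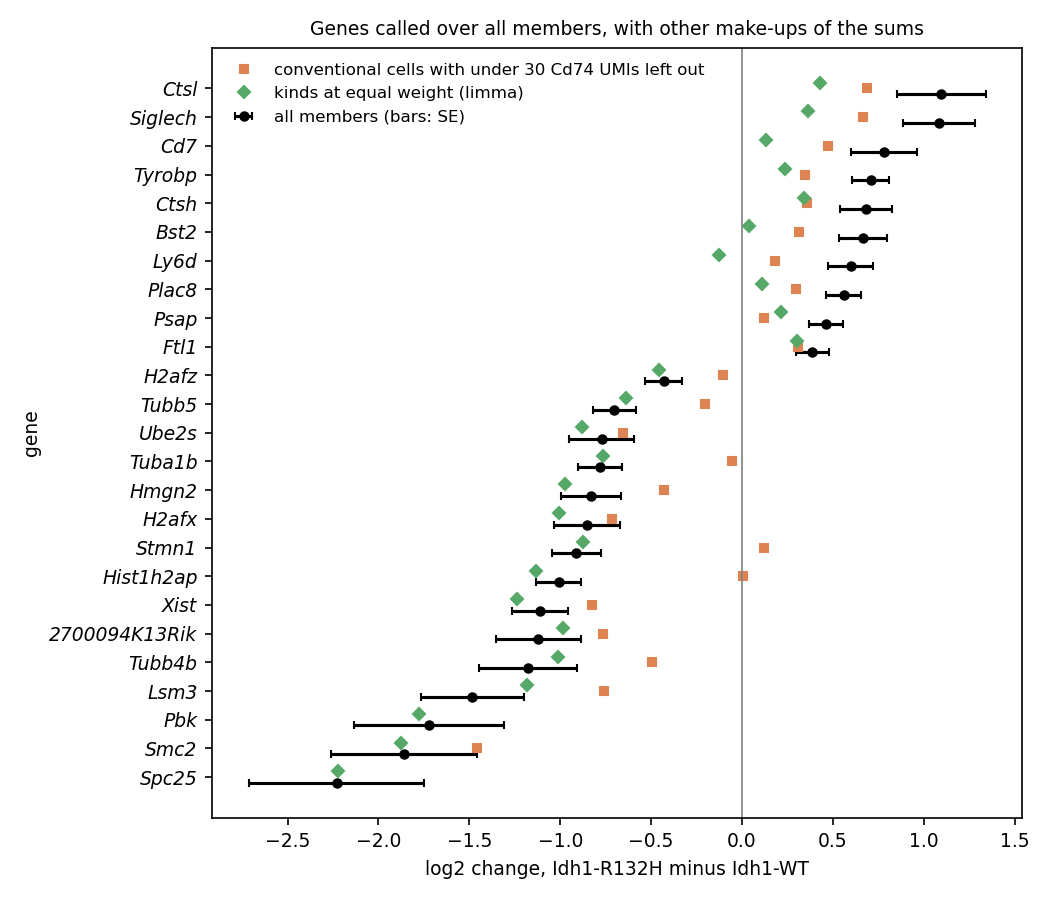
Log2 difference, Idh1-R132H minus Idh1-WT, of the 25 genes called over all members (filled points, bars are 1 SE), beside the same genes with conventional cells of 30 or more Cd74 UMIs only and with the kinds at equal weight. The Hist1h2ap, Stmn1 and Tuba1b differences of -1.01, -0.91 and -0.78 lie near 0 in the first alternative, and those of Ly6d and Bst2 near 0 in the second.

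The genotype difference itself differed between the kinds for 8 of 1587 genes (0.504%), by edgeR's test of a kind by genotype term with the library as a block, 2 above 0 (0.126%) and 6 below (0.378%). Without adjustment 154 had p under 0.05. Crip1 was lower in Idh1-R132H plasmacytoid cells (2861 and 4101 CPM against 1476 and 1506 CPM) and was at 5375 and 5275 CPM against 6860.2 and 5805 CPM in conventional cells, a difference of -1.41 ± 0.20 (adjusted p = 0.00477). Tmsb10 went the same way (-1.02 ± 0.16, adjusted p = 0.00657), at 10759.7 and 10299 CPM against 13077 and 11039 CPM in conventional cells. Fcer1g was at 2075 and 2258 CPM against 1659 and 1398 CPM in plasmacytoid cells, and rose in conventional cells as given above (-1.21 ± 0.25, adjusted p = 0.0316). Lgals3, S100a6 and Tmsb4x were the other 3 below 0. Srgn was at 622 and 758 CPM in Idh1-WT and at 469.6 and 436 CPM in Idh1-R132H conventional cells, the opposite order to plasmacytoid cells (1.92 ± 0.37, adjusted p = 0.0256). Ifitm1 (3.37 ± 0.66, adjusted p = 0.0275) rested on 33 UMIs in 11 plasmacytoid cells. Leaving out Idh1-WT 2 gave 0 calls (119 with unadjusted p under 0.05) and leaving out Idh1-R132H 2 gave 4, 3 of them among the 8, against 22 without Idh1-WT 1 and 24 without Idh1-R132H 1. The uneven spread of Lgals3-rich plasmacytoid and progenitor-marked conventional cells moved with these differences, and its part was not tested. Among conventional cells with 30 or more Cd74 UMIs, the groups overlapped for Crip1 (7095 and 8024 in Idh1-WT, 7711 and 6558 CPM in Idh1-R132H). They overlapped there too for Tmsb10 (14082 and 15430.5 against 14998 and 12350 CPM) and Srgn (447 and 400 against 374 and 405 CPM). Fcer1g stayed higher in Idh1-R132H there (1167 and 1027 against 1258 and 1729 CPM). Srgn in plasmacytoid cells with under 3 Lgals3 UMIs did not overlap (388 and 356 against 739 and 671 CPM).

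**Figure D5:**
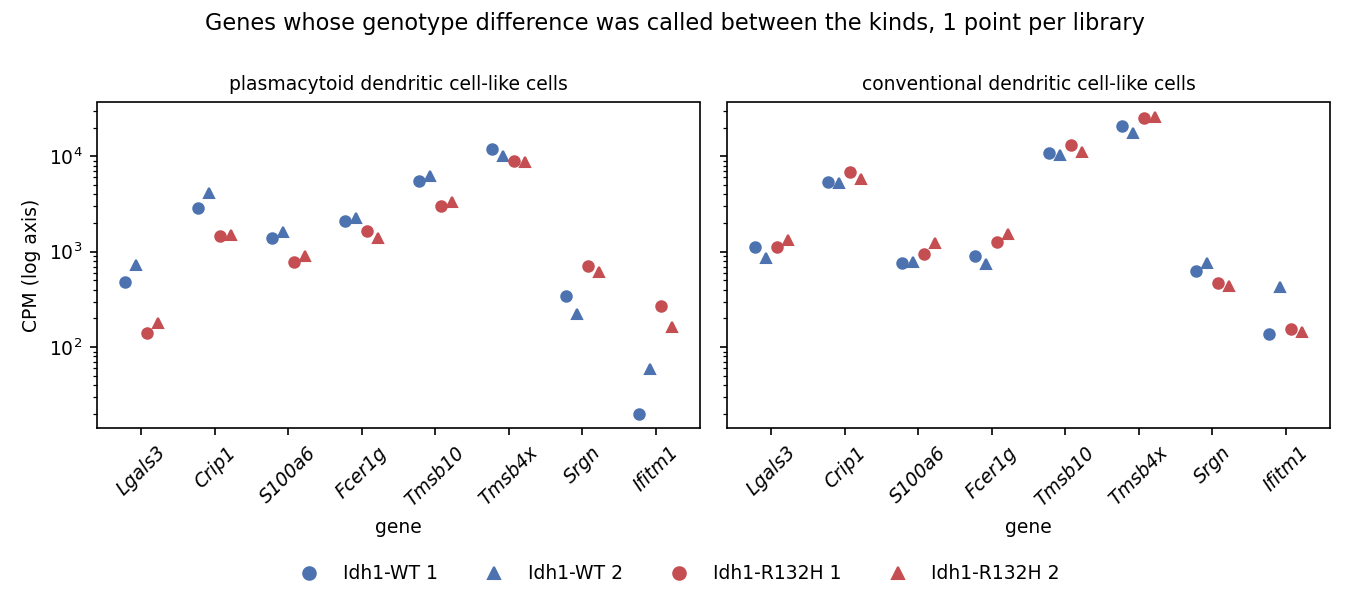
CPM per library, on a log axis, of the 8 genes whose genotype difference differed between the kinds, with plasmacytoid cells in the left and conventional cells in the right panel and points coloured by genotype. For Crip1 and Tmsb10 the Idh1-R132H points lie under the Idh1-WT points in the left panel and above them in the right.

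Against all other kept cells of the same libraries, the genotype difference of the members differed for 31 of 12376 genes (0.25%), 4 above 0 (0.0323%) and 27 below (0.218%). Of 18 genes of S, G2 and M phase tested, 16 differences were below 0 and 5 of them were called: Stmn1 (-1.003 ± 0.12, edgeR adjusted p = 2.62e-13), Top2a (-1.07 ± 0.26), Ccnb2, Hmgb2 and Tubb5. Their median was -0.81, against -0.07 over all 12376 genes. Hist1h2ap (-1.19 ± 0.10, adjusted p = 2.87e-27) was also below 0. In this fit the spread was pooled fully over genes (infinite prior degrees of freedom at the median gene). The very small p-values therefore do not rest on these genes' own spread between mice. Stmn1 in other cells was at 1842 and 1651 CPM in Idh1-WT and at 1771 and 1801 CPM in Idh1-R132H. Above 0 were Plac8 (0.42), Tyrobp (0.59), Slpi (1.43) and Ccl5 (3.55). Slpi, a secreted protease inhibitor, was at 336 and 328 CPM against 229 and 241 CPM in other cells and at 262 and 119 CPM against 436 and 197 CPM in plasmacytoid cells, where the groups overlapped. Leaving out Idh1-WT 1 or Idh1-WT 2 gave 0 calls (316 and 217 with unadjusted p under 0.05), against 33 without Idh1-R132H 1 (20 of the 31) and 11 without Idh1-R132H 2 (5 of the 31). Taken alone, the plasmacytoid cells had a genotype difference unlike that of other cells in 11 of 12234 genes (0.0899%), 7 above 0 (0.0572%) and 4 below (0.0327%). The 4 below were Crip1, Tmsb10, Lgals3 and Hdgf, and those above included Rps12 (0.84), Srgn (1.41) and Apoe (3.09). The conventional cells alone had one in 27 of 12294 genes (0.22%), 8 above 0 (0.0651%) and 19 below (0.155%). Stmn1 was among the 19 (-1.14, adjusted p = 9.97e-12), and Tmsb4x, Fcer1g, S100a6, Ccl9 and Prdx5 were among the 8. Fits against other cells were not run without the progenitor-marked conventional cells. These numbered 5 and 9 in Idh1-WT against 1 and 3 in Idh1-R132H, and held Stmn1 at 3610 CPM. Conventional cells with 30 or more Cd74 UMIs held Stmn1 at 778 and 496 CPM in Idh1-WT and at 1059 and 883 CPM in Idh1-R132H. The spread was pooled fully over genes in the fits of each kind alone too.

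The targeted gene itself was scarce in the dendritic cell-like cells. Idh1, the cytosolic enzyme that makes 2-oxoglutarate from isocitrate, was at 20.1, 14.9, 14.1 and 17.9 CPM in plasmacytoid and at 21.3, 27.9, 20.4 and 23.8 CPM in conventional cells, against 52.4 to 64.0 CPM in other cells. Counts of UMIs per gene do not show the R132H base, so these values do not check the genotype labels. Idh2, the mitochondrial enzyme, was at 101, 149, 98.4 and 71.7 CPM and at 138, 112, 51.0 and 79.3 CPM (conventional log2 -0.84 ± 0.43, edgeR adjusted p = 0.51). D2hgdh, which oxidises D-2-hydroxyglutarate, had no UMI in plasmacytoid cells and at most 7.93 CPM in a library of conventional cells. Of the 18 isocitrate and 2-oxoglutarate enzyme genes listed, 5 were tested in conventional cells, 4 higher and 1 lower, and 0 passed.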

How the data were processed

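Single-cell RNA-seq of marrow from 4 mice was analysed, 1 library per mouse. The deposited values are whole UMI counts, not normalized, of 27998 features in every barcode, empty droplets among them. Cell Ranger 4.0.0, Seurat and the build GRCm38 (mm10) are the tools and genome recorded, per the submitters' processing notes, and their settings are not given in the sources used here. The members and gene lists were chosen with earlier results of these data known, and the members were chosen by their own counts.

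Counts were summed per library over each kind and over both. Genes passing filterByExpr were tested with edgeR 4.0.16 (TMM, robust quasi-likelihood) in R 4.3.3 at a Benjamini-Hochberg FDR of 0.05. DESeq2 1.42.0, limma 3.58.1 (equal weight of kinds, log2 of CPM + 5), a replicate block, each library left out and other member rules were alternatives. Both kinds missed the planned minimum of 20 cells a library in at least 1 library and were fitted at 10. Differences between kinds, or from other cells, used an interaction term with the library as a block. Shares had exact Clopper-Pearson 95% intervals and exact permutation tests. Numbers called CPM are UMIs per 1000000 UMIs of the summed cells. Intervals and floors (3 counts) cover counting error only.

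Genes named are, per comparison, the 10 called genes that rose most and the 10 that fell most (average log2 CPM 5 or more), the 4 of lowest p in each list, and 18 fixed genes. For the kinds they are the dendritic markers and the 15 genes with the largest lowest ratio to other cells at 50 CPM or more. Other genes, and the divisions by progenitor markers, marker lead and Lgals3, were chosen after their values were seen. Scrublet (scanpy 1.11.5) called 18 doublets (0.111%), too few to have worked, so none were removed. Leaving out the 535 top-scoring cells, 1 of them a member, was an alternative. Barcodes with 50 UMIs or fewer gave the profile of free RNA. Same-numbered libraries did not deviate together (correlations -0.090, -0.071 and -0.096 over all members, plasmacytoid and conventional cells). With sums over so few cells this cannot exclude a shared batch, and whether the numbers pair mice is not known. Of kept barcodes, Idh1-WT 1 and Idh1-R132H 1 shared 345, and Idh1-WT 2 and Idh1-R132H 2 shared 26. The edgeR fit was run on simulated data. Of genes changed by 2 on the log2 scale it recovered 98.5% over all members, 97.0% in plasmacytoid (992 genes) and 95.2% in conventional cells (2052 genes). For genes changed by 1 it recovered 57.6%, 50.8% and 30.6%, and for 0.5 it recovered 8.1%, 15.2% and 9.2%. False calls numbered 5, 3 and 0. The simulation gave all genes the same spread and no change in the mix of cells, so these rates may not hold for these data.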

Additional observations from a re-analysis of the deposited data

Results flagged for a closer look

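The genotype difference, Idh1-R132H minus Idh1-WT, was called different between plasmacytoid and conventional dendritic cell-like cells for 8 genes, by edgeR's test of a kind by genotype term with the library as a block. Of these, 6 differences were below 0: Lgals3 (-2.23), Crip1 (-1.41), S100a6 (-1.28), Fcer1g (-1.21), Tmsb10 (-1.02) and Tmsb4x (-0.65). Those above 0 were Srgn (1.92) and Ifitm1 (3.37). S100a6 was at 1390.0 and 1605 CPM in Idh1-WT and at 787 and 896 CPM in Idh1-R132H plasmacytoid cells, and at 755 and 786 CPM and 949 and 1245 CPM in conventional cells. In the plasmacytoid cells with under 3 Lgals3 UMIs it was at 656, 713, 634 and 651 CPM, which span less than the full set. Tmsb4x was at 11926 and 9999 CPM and at 8925 and 8819 CPM in plasmacytoid cells, where it was not called. Leaving out Idh1-WT 2 left 0 of the 8 differences called.

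Against all other kept cells, 31 genes differed in the genotype difference of the members, and 0 were called when either Idh1-WT library was left out.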

How the results depend on the processing

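With 2 mice a group and 52 and 86 cells, counts of calls moved by over 1.5 times under the choices below, and the cause was not tested unless a value above shows it. Minimums of 300 and 1000 UMIs kept all calls, and RLE factors gave 25, 18 and 27 calls over all members, in plasmacytoid and in conventional cells. Over all members (25 calls), the count was 0 with the rule applied after thinning to 3000 UMIs, with 30 Cd74 UMIs required and in Xist-carrying cells alone. It was 1 with an Itgax UMI required, with 30 Cd74 UMIs and no Kit or Cd34 UMI, with the Cd79b condition dropped and in DESeq2, 3 with kinds at equal weight and 9 with 4 Siglech UMIs required. It was 14 without cells of either kind holding a Kit or Cd34 UMI, 16 without top-scoring doublets and with every Siglech cell, 54 with no filter, and 6 to 47 with a library left out. For plasmacytoid cells (12 calls) it was 0 in DESeq2, 2 without Lgals3-rich cells, 4 without cells meeting both parts, 6 with library totals and with free RNA subtracted, 20 with the Cd79b condition dropped, 148 with every Siglech cell and 9 to 36 with a library left out. For conventional cells (27 calls) it was 0 in DESeq2, 1 with 30 Cd74 UMIs with or without Kit and Cd34 cells, 9 without Kit or Cd34 cells and 3 to 52 with a library left out. Between the kinds (8) it was 0 to 24 with a library left out, and against other cells (31) 0 to 33.

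Whether same-numbered mice pair is not known. A replicate block gave 10 calls over all members, 0 in plasmacytoid cells (83 with unadjusted p under 0.05) and 36 in conventional cells, all 27 among them. Without the library as a replicate block, 18 genes differed between kinds and 16 from other cells.

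As log2 ratios, the share of plasmacytoid dendritic cell-like cells was 0.375 with 4 Siglech UMIs. The share of conventional dendritic cell-like cells was 0.276 after thinning, -0.222 with 30 Cd74 UMIs and -0.828 to -0.235 with a library left out, the last without Idh1-WT 2. The share of plasmacytoid among all dendritic cell-like cells was -0.0737 after thinning, 0.657 with 4 Siglech UMIs, 0.148 with 30 Cd74 UMIs, 0.196 with Itgax, 0.165 without Kit or Cd34 cells, 0.202 with both and 0.232 with the Cd79b condition dropped.

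These directions reversed. Over all members, Ctsl was -0.080 after thinning and Ly6d -0.13 at equal weight of kinds. With 30 Cd74 UMIs, without Kit or Cd34 cells, and with both, Hist1h2ap was 0.0032, 0.29 and 0.065 and Stmn1 0.12, 0.17 and 0.19 over all members. In conventional cells under the same settings Stmn1 was 0.60, 0.54 and 0.81, Hist1h2ap 0.74, 0.70 and 0.91 and Tuba1b 0.27, 0.36 and 0.54, and Tubb5 was 0.022 with 30 Cd74 UMIs. Plasmacytoid fits with 4 Siglech UMIs or after thinning, and conventional fits after thinning or with Itgax required, were not run, since a library held under 10 cells.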
